A study of Mus musculus with 2 samples.

Results

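The Thbs4/Col22a1 tendon-junction fibroblasts of mouse limb muscle were examined in a single-cell RNA-seq series. A cell entered the set when it had at least 500 detected genes, at most 10% mitochondrial UMIs (unique molecular identifiers, each counting 1 captured mRNA) and fewer than 2 UMIs each of the leukocyte gene Ptprc and the endothelial gene Cdh5. It also had to hold at least 3 of 5 junction genes (Col22a1, Thbs4, Tac1, Col11a1 and Edil3) and more of them than of 5 genes of the neighbouring tenocytes (Angptl7, Fmod, Wif1, Kera and Bmpr1b). This rule took 298 of 10891 kept cells, and these are called members below. Because members were picked on these genes, the levels of the rule genes and every contrast between members and other cells are descriptions and carry no test.

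The study treated aged C57BL/6 mice by intraperitoneal injection with Maraviroc (MVC) or with the vehicle DMSO, and asked how the muscle niche differed between the treatments. Live mononuclear cells of limb muscle, freed of red blood cells by lysis, were sorted with a viability dye and loaded on the 10x Chromium system. There was 1 library per treatment, and the labels do not give how many mice each library held. With no replicate library, the treatment and the preparation of each library cannot be told apart, no p-value is given, and a gene is counted as higher or lower when its summed level differs by at least 1.5-fold.

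Tendon is built from parallel collagen I fibrils, and the transcription factors Scx and Mkx and the membrane protein tenomodulin (Tnmd) mark the fibroblasts that lay it down. Where a tendon meets the muscle fibre, at the myotendinous junction, the matrix has its own components. Collagen XXII (Col22a1) sits there at the muscle end, and thrombospondin-4 (Thbs4) is a pentameric matrix protein enriched at that site and in tendon. Collagen XI (Col11a1) seeds thin fibrils, Edil3 is a secreted integrin ligand, and Tac1 encodes the precursor of substance P.

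The DMSO library held 126 members among 5437 kept cells, or 2.32% (95% interval 1.93 to 2.75). The MVC library held 172 among 5454, or 3.15% (2.71 to 3.65), a difference of 0.836 percentage points (0.223 to 1.45). All intervals in the text are exact or Newcombe 95% intervals and cover counting error only, not the spread between animals or preparations. A DMSO member had a median depth of 8928.5 UMIs over 2734.5 genes and an MVC member 8512 UMIs over 2743 genes, and their sums came to 1257192 and 1621150 UMIs. Their median share of mitochondrial UMIs was 1.55% and 2.30%. Across all kept cells the median depth was 5802 and 5195 UMIs. The simulated-doublet caller marked 3 and 1 members, and of the 9 cell barcodes that occur in both libraries none belonged to a member. A further 24 cells of the DMSO library and 13 of the MVC library met the junction and tenocyte gene counts but were left out for Cdh5 UMIs, and 6 and 4 of those were doublet calls.

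**Figure D1:**
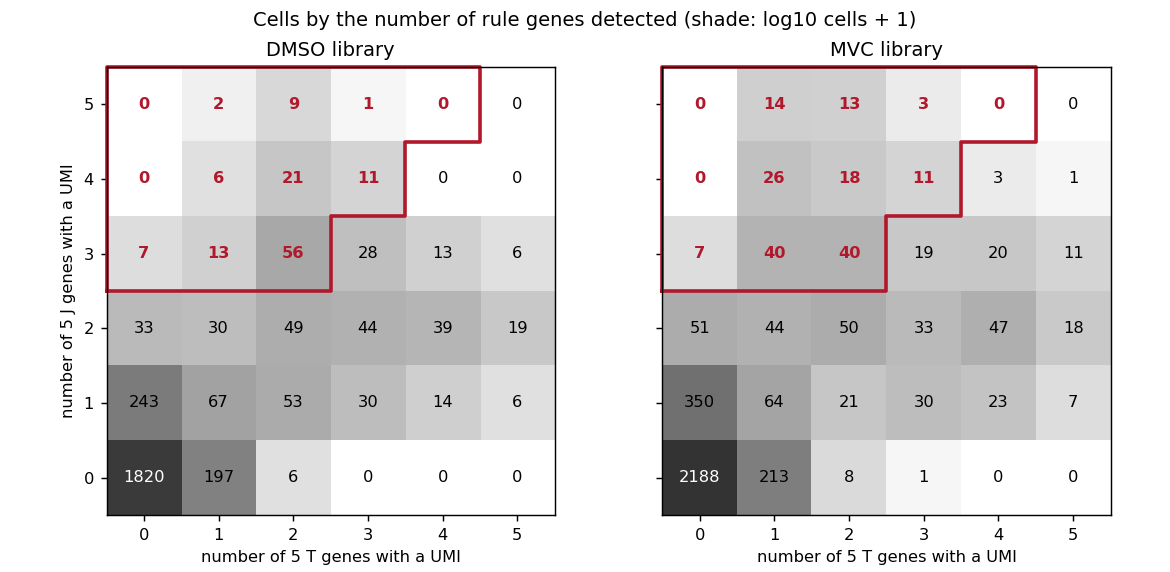
Kept cells with fewer than 2 UMIs each of Ptprc and Cdh5, counted by how many junction genes (vertical) and tenocyte genes (horizontal) they held, for each library. Most members held 3 junction genes (76 and 87 cells), and cells with 2 tenocyte genes made up 86 of the DMSO members and 71 of the MVC members.

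The label was checked against the data. Thbs4 was detected in every member, Edil3 in 95.2% of DMSO and 89.5% of MVC members, and Col11a1 in 79.4% and 89.0%. Tac1 was present in 46.8% and 46.5%. Col22a1, the collagen that is named in the label, was present in only 35 of 126 DMSO members (27.8%, 20.2 to 36.5) and 72 of 172 MVC members (41.9%, 34.4 to 49.6). The most common combination was Thbs4, Col11a1 and Edil3 without the other junction genes, in 48 and 56 members, while all 5 were found together in 12 and 30. Thbs4, Edil3 and Col11a1 were thus the genes that most members were chosen by, and Col22a1 was detected in a minority. A cell with no Col22a1 UMI may still express the gene, since detection depends on depth. Markers of the tendon lineage were present, with Tnmd in 57.1% and 77.9% of members, Mkx in 55.6% and 59.9% and Scx in 19.8% and 39.5%.

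Cells chosen by genes of other cell types gave a comparison share for each junction gene. In endothelial cells with at least 2 Cdh5 UMIs, at a median of 4428 and 4308.5 UMIs per cell, Col22a1 was found in 0.940% and 0.901%, Tac1 in 0.611% and 0.901%, Col11a1 in 1.41% and 1.35% and Edil3 in 1.5% and 0.957%. Thbs4 was found there in 5.31% and 8.16%. These endothelial cells included the 24 and 13 cells left out of the members for Cdh5 UMIs. Of the endothelial cells with Col22a1, 16 of 20 in the DMSO library and 9 of 16 in the MVC library were such left-out cells. Some background shares were larger in other cell sets, which were also deeper. In FAP-rule cells (defined below, median 11466 and 10566 UMIs) Thbs4 was found in 13.6% and 16.9%, Tac1 in 3.24% and 4.38% and Edil3 in 3.48% and 2.59%, and in leukocytes with at least 2 Ptprc UMIs (median 7294.5 and 8724) Edil3 in 3.70% and 4.92%. The tenocytes, defined by at least 3 tenocyte genes and more of these than of junction genes (171 and 191 cells, median 8519 and 8351 UMIs), held Thbs4 in 99.4% and 99.0%, so Thbs4 alone did not separate the cell sets. Col22a1 was found in 1.75% and 0.524% of the tenocytes, Tac1 in 7.02% and 3.14%, Edil3 in 24.0% and 22.5% and Col11a1 in 49.7% and 59.7%.

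**Figure D2:**
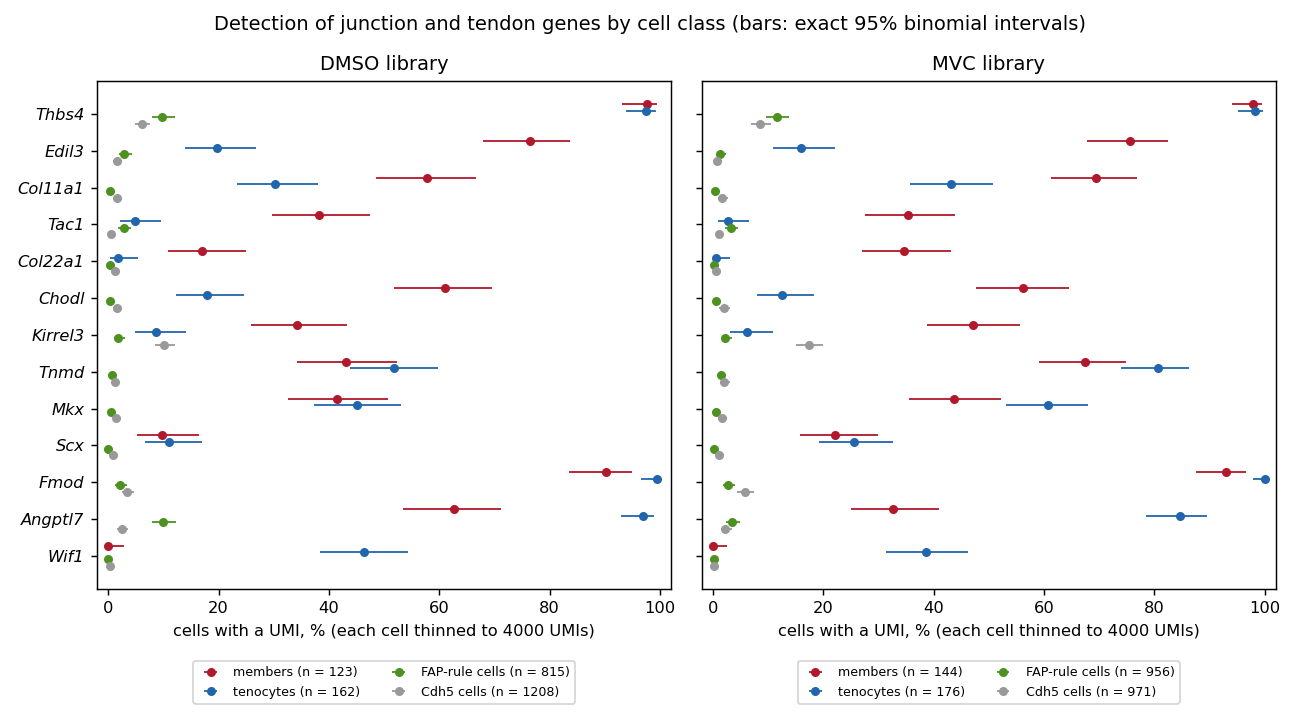
Percent of cells with a UMI of each gene, every cell thinned to 4000 UMIs, for members, tenocytes, fibro-adipogenic progenitors (FAP-rule cells) and Cdh5 cells; bars are exact 95% binomial intervals. Col22a1 was found in 17.1% of DMSO and 34.7% of MVC members at this depth, and Angptl7 in 62.6% and 32.6%.

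Each junction gene was also read in cells chosen by the other 4 genes, at least 3 of which had to be present. Col22a1 was then found in 26 of 117 DMSO cells (22.2%, 15.1 to 30.8) and 58 of 158 MVC cells (36.7%, 29.2 to 44.7). Tac1 was found in 26 of 93 (28.0%) and 52 of 144 (36.1%). Col11a1 was present in 38 of 64 (59.4%) and 73 of 92 (79.3%), and Edil3 in 39 of 45 (86.7%) and 69 of 87 (79.3%). Thbs4 was detected in all 39 and all 74 cells chosen without it. Thbs4, Edil3 and Col11a1 were thus detected in most of the cells picked without them, and Col22a1 and Tac1 in a minority at this depth.

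Near the limits of the rule the cells graded into one another. Members with 3 junction and 2 tenocyte genes (56 and 40 cells) had Thbs4 at 10113 and 10487 CPM (the gene's share of the summed UMIs, scaled to 1000000). Cells just outside, with 3 of each (28 and 19), had Thbs4 at 9762 and 10407 CPM and Angptl7 at 4701 and 1880 CPM. On the other side, cells with 2 junction genes and at most 1 tenocyte gene (63 and 95) had Thbs4 at 3655 and 3886 CPM and the FAP gene Pdgfra at 335 and 167 CPM. In members with 3 junction genes and at most 1 tenocyte gene (20 and 47), Pdgfra stood at 124 and 46.9 CPM.

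Members of the DMSO and MVC libraries differed in how many tenocyte genes they held. A single tenocyte gene was found in 21 DMSO members (16.7%) and 80 MVC members (46.5%), and exactly 2 in 86 (68.3%) and 71 (41.3%). Fmod, the collagen-binding proteoglycan fibromodulin, was present in 92.9% and 94.2%, whereas Angptl7, a secreted angiopoietin-like protein, was present in 71.4% and 36.0%. Keratocan (Kera) was found in 11.1% and 12.2%, the BMP receptor Bmpr1b in 5.56% and 11%, and the Wnt inhibitor Wif1 gave 1 UMI in all DMSO members and 0 in the MVC members. Angptl7 therefore carried most of this difference, and since it enters the rule, the number of cells that met the rule moved with it. With Angptl7 left out of the tenocyte genes, 154 and 189 cells were members.

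Besides the rule genes, members differed from the tenocytes in a limited number of genes. Of 8608 genes with at least 50 UMIs over both cell sets, 266 (3.09%) were at least 2-fold higher in members in both libraries and 217 (2.52%) at least 2-fold lower. The gene Chodl, encoding the membrane lectin chondrolectin, stood at 469 CPM in DMSO members and 464 CPM in MVC members, against 95.4 and 55.5 CPM in tenocytes. It was detected in 72.2% and 65.7% of members and in 22.8% and 16.8% of tenocytes. Kirrel3, an immunoglobulin-family adhesion protein, stood at 390 and 846 CPM against 47.7 and 23.6 CPM, 8.17-fold and 35.8-fold higher in members.

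Other genes of this group encode matrix and signalling proteins. Matrix Gla protein (Mgp), an inhibitor of calcification, stood at 11678 and 9269 CPM in members and at 1769 and 1447 CPM in tenocytes. Sparcl1, a matricellular relative of Sparc, was 9.94-fold (7.44 to 13.5) and 11.3-fold (8.96 to 14.5) higher. The collagen V chain Col5a3 was 10.7-fold and 7.85-fold higher, the basement membrane collagen Col18a1 5.41-fold and 13.4-fold, and Col4a2, a chain of basement membrane collagen IV, 4.79-fold and 5.11-fold. Of the receptors and signalling proteins, the death receptor Tnfrsf21 was 11.2-fold and 14.1-fold higher, the orphan receptor Gpr176 31.7-fold (15.1 to 80.1) and 6.98-fold (5.14 to 9.67), and the cAMP-activated exchange factor Rapgef4 6.57-fold and 8.45-fold. The secreted glycoprotein reelin (Reln) stood at 100 and 162 CPM in members and at 1.29 and 26.0 CPM in tenocytes. The DMSO fold of Reln rested on 2 tenocyte UMIs, with an interval of 21.1 to 649.

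Genes lower in members than in tenocytes included secreted proteins and receptors. The leptin receptor Lepr stood at 36.6 and 22.2 CPM in members and 477 and 292 CPM in tenocytes. Igfbp5, an IGF-binding protein, stood at 90.7 and 102 CPM against 732 and 1364 CPM, and the extracellular chaperone clusterin (Clu) at 32.6 and 29.0 CPM against 243 and 281 CPM. The complement gene C3 was lower at 134 and 80.2 CPM against 705 and 655 CPM. The long noncoding RNA Sox2ot stood at 2.39 and 1.85 CPM in members against 144 and 120 CPM. All these contrasts pointed the same way in both libraries because the counting rule asked for it.

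Members were farther from the FAP-rule cells (833 and 1005 cells holding at least 4 of Pdgfra, Ly6a, Dpt, Lum and Cd34, with fewer than 3 junction and 3 tenocyte genes, at a median of 11466 and 10566 UMIs). Of 12486 genes, 705 (5.65%) were at least 2-fold higher in members in both libraries and 1018 (8.15%) at least 2-fold lower. The higher group included tendon genes. Tnmd stood at 206 and 651 CPM in members against 2.30 and 6.07 CPM in FAP-rule cells, Mkx at 253 and 265 CPM against 2.0 and 1.09 CPM, and the matrix protein chondroadherin (Chad) at 247 and 522 CPM against 0.300 and 0.181 CPM. Chodl stood at 469 and 464 CPM against 0.60 and 1.99 CPM, and the transmembrane collagen Col13a1 was 91.5-fold and 98.7-fold higher. The growth factor Hbegf stood at 513 and 376 CPM against 12.1 and 7.25 CPM. Lower in members were the endothelial protein C receptor Procr (7.16 and 6.79 CPM against 776 and 471), the membrane peptidase Mme (3.98 and 3.70 CPM against 151 and 184), the fibulin Efemp1 (7.95 and 7.40 CPM against 277 in both libraries) and the chemokine Ccl11 (23.9 and 38.2 CPM against 1193 and 1036).

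Between the libraries, 880 of 6457 genes with at least 50 member UMIs (13.6%) were at least 1.5-fold higher in MVC members and 437 (6.77%) at least 1.5-fold lower. The median log2 ratio of MVC over DMSO over all 6457 genes was 0.04. Most fibrillar collagen genes, 4 of 8 tendon lineage genes and several other matrix genes stood higher in the MVC members, and Angptl7, the lipid-binding protein Apod, several chemokine and cytokine genes and the crosslinking enzyme Lox stood lower. The gene coordinates that follow are those of GENCODE M21 on the GRCm38 (mm10) build.

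**Figure D3:**
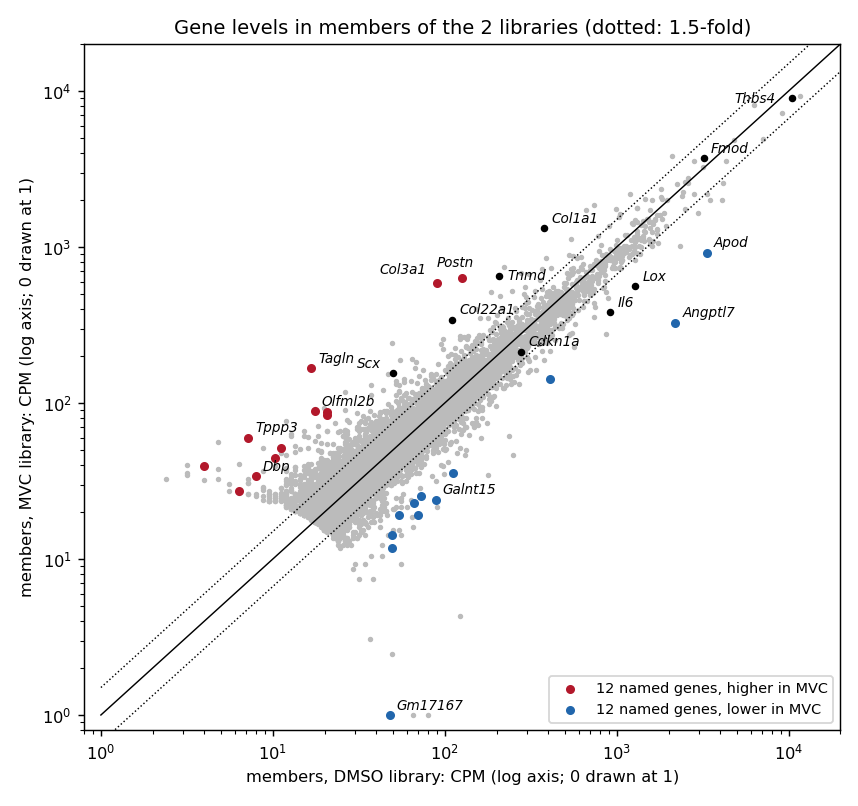
Level of each of 6457 genes in the members of the DMSO library (horizontal) and the MVC library (vertical), in CPM on log axes; the dotted lines mark 1.5-fold and the coloured points the named genes with the 12 highest and 12 lowest ratios. Postn, Col3a1 and Tagln lie above the upper line, and Angptl7, Apod and Galnt15 lie below the lower one.

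Among the 12 genes with the highest ratio, 3 encode proteins of matrix or the contractile cytoskeleton. Tagln (chr9:45929619-45936058), an actin-binding protein of smooth muscle and contractile fibroblasts, gave 21 UMIs in DMSO members and 270 in MVC members, or 16.7 CPM (10.3 to 25.5) and 167 CPM (147 to 188). That made it 9.97-fold higher (6.39 to 16.4) in the MVC library, and it was detected in 9.52% and 22.7% of members. Collagen III (Col3a1, chr1:45311538-45349706) stood at 90.7 CPM (74.8 to 109) and 591 CPM (554 to 630), 6.52-fold higher (5.36 to 7.98). Periostin (Postn, chr3:54361109-54391037), a matricellular protein of loaded connective tissue, stood at 126 CPM (108 to 148) and 632 CPM (594 to 672), 4.99-fold higher (4.22 to 5.94).

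Much of the UMI count of these 3 genes lay in few cells, in both libraries. The 3 cells richest in each gene held 57.1% of the DMSO and 37.8% of the MVC UMIs of Tagln, 48.2% and 47.5% of those of Col3a1, and 40.9% and 35.3% of those of Postn. In the tenocytes the log2 ratio of Tagln was 3.57, beside 3.32 in members, but that of Col3a1 was -0.06 and that of Postn -0.13. In FAP-rule cells Tagln was lower in the MVC library, at a log2 ratio of -1.63. The 24 DMSO cells left out for Cdh5 carried 371 Postn UMIs, against 159 in all 126 DMSO members, and with the Ptprc and Cdh5 limits dropped the log2 ratio was 1.18 for Postn in place of 2.32 and 2.34 for Tagln in place of 3.32.

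The other genes with the highest ratios had fewer UMIs. Olfml2b, a secreted olfactomedin-domain protein, gave 22 and 143 UMIs and was found in 16.7% and 41.3% of members, 5.04-fold higher (3.20 to 8.30). Tppp3, a tubulin-binding protein known from tendon sheath cells, gave 9 and 97 UMIs, 8.36-fold higher (4.23 to 18.8). The clock output factor Dbp (chr7:45705088-45710203) gave 10 and 55 UMIs and had a log2 ratio of 2.09 in members, 2.44 in tenocytes and 2.48 in FAP-rule cells, so its ratio was high in all 3 cell sets. Monoacylglycerol lipase (Mgll) was 4.24-fold higher (2.77 to 6.71) in members, with log2 ratios of 0.02 in tenocytes and 0.02 in FAP-rule cells. The interferon-induced GTPase Gbp2 was 4.03-fold higher (2.63 to 6.39). Plcb1 (phospholipase C), Aqr (a splicing helicase), Slc35a3 (a Golgi nucleotide-sugar transporter) and AC149090.1 completed the group, at log2 ratios of 2.22, 2.10, 2.09 and 3.31. With cells thinned to 4000 UMIs before the rule, Slc35a3 no longer passed 1.5-fold (log2 ratio 0.19).

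Angptl7 (chr4:148495183-148500460) was the most abundant gene among the 12 with the lowest ratio after Apod. It gave 2750 UMIs in DMSO members, at 2187 CPM (2106 to 2271), and 529 UMIs in MVC members, at 326 CPM (299 to 355). Its ratio was 0.149 (0.136 to 0.164), a log2 ratio of -2.74, beside -0.34 in tenocytes and -1.77 in FAP-rule cells. As a rule gene it is given as a description. Apod (chr16:31296192-31314808), encoding the lipid carrier apolipoprotein D, stood at 3331 CPM (3231 to 3434) and 918 CPM (872 to 966), a ratio of 0.276 (0.260 to 0.293). It was found in 94.4% and 87.8% of members. Its log2 ratio was -0.55 in tenocytes and -1.40 in FAP-rule cells.

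Galnt15 (chr14:32028989-32062197), a glycosyltransferase that starts O-linked glycans, stood at 88.3 and 24.1 CPM, with log2 ratios of -1.88 in members, -2.13 in tenocytes and -2.04 in FAP-rule cells. The cytoskeletal kinase Limk2 had a log2 ratio of -1.53 in members and 0.15 in tenocytes, and the RNA-binding protein Cpeb3 one of -1.80 in members and 0.00 in tenocytes, although with cells thinned to 4000 UMIs before the rule Cpeb3 stood at -0.30. Lcorl stood at -1.52. The carnitine transporter Slc22a5 (log2 ratio -1.50), Rps27rt (-1.65) and Rpl9-ps6 (-2.07) share 37.8%, 92.7% and 92.7% of their transcript sequence words of 31 bases with other genes, so that reads could be split between copies, and Gm15726, at a ratio of 0.273, is an antisense gene, so these 4 are uncertain. Gm17167 gave 60 UMIs in DMSO members and 0 in MVC members. It shares 65.7% of its words with other genes and was also lower in tenocytes and FAP-rule cells of the MVC library, at log2 ratios of -5.60 and -6.25.

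The 5 junction genes did not move together between the libraries. Col22a1 (chr15:71795795-72034227) gave 138 UMIs in DMSO members, 110 CPM (92.2 to 130), and 553 in MVC members, 341 CPM (313 to 371), a ratio of 3.11 (2.57 to 3.77). Col11a1 stood at 295 and 440 CPM, a ratio of 1.49 (1.31 to 1.70). Thbs4 (chr13:92751590-92794818) stood at 10507 and 9066 CPM, a ratio of 0.863 (0.843 to 0.883). Without the subgroup of 57 cells described below its log2 ratio was 0.02 in place of -0.21. Tac1 and Edil3 had log2 ratios of -0.05 and 0.16. Only Col22a1 thus passed 1.5-fold.

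The Col22a1 difference depended on which cells were kept. In the whole DMSO library Col22a1 gave 441 UMIs, of which 277 lay in the 24 cells left out for Cdh5 and 138 in members. In the MVC library it gave 659 UMIs, of which 73 lay in the 13 cells left out and 553 in members. The cells left out had medians of 15383.5 and 13166 UMIs, and Col22a1 stood there at 595 and 417 CPM. With the Ptprc and Cdh5 limits dropped, the log2 ratio of Col22a1 was 0.53 in place of 1.64, below 1.5-fold.

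Tendon lineage genes stood higher in MVC members in 4 of 8 cases and lower in 1, against 13.6% and 6.77% of all genes. The transcription factor Scx stood at 50.1 and 155 CPM, a ratio of 3.09 (2.34 to 4.14), and Tnmd at 206 and 651 CPM, a ratio of 3.16 (2.75 to 3.63). Cartilage oligomeric matrix protein (Comp) was 2.43-fold higher (2.15 to 2.75) and Chad 2.12-fold (1.86 to 2.42). Mkx was close to level at 253 and 265 CPM. Tenascin-C (Tnc), a matricellular protein of developing and injured tendon, stood lower at 866 and 512 CPM, a ratio of 0.591 (0.539 to 0.648). The immediate-early factor Egr1 had a log2 ratio of 0.33, and the matrix protein Cilp2 one of 0.52. The median of the list was 0.80 in members, 0.98 in tenocytes and 0.74 in FAP-rule cells, all above 0. In the tenocytes Tnmd and Scx had log2 ratios of 1.44 and 0.98. Tnc lost its call in 5 alternatives, with log2 ratios from -0.56 to -0.32, and Chad lost it with the Ptprc and Cdh5 limits dropped (0.28).

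The fibrillar collagens, a list that includes the rule gene Col11a1, were higher in the MVC members as a group. Of 10 tested genes 8 were past 1.5-fold and none was lower, against 13.6% and 6.77% of all genes. Their summed level was 2088 CPM in DMSO members and 4948 CPM in MVC members. The chains of collagen I, the main fibril of tendon, stood at 379 and 1314 CPM for Col1a1 (ratio 3.47, 3.14 to 3.84) and at 664 and 1733 CPM for Col1a2 (ratio 2.61, 2.41 to 2.82). Col5a3, Col11a2, Col24a1 and Col27a1 had log2 ratios of 0.89, 1.23, 0.89 and 1.05, and Col5a1 one of 0.59. Col5a2 was nearly level at 434 and 447 CPM. The median log2 ratio was 0.97 in members, 0.99 in tenocytes and 0.69 in FAP-rule cells. Col11a2 fell below 1.5-fold with cells thinned to 4000 UMIs before the rule, at a log2 ratio of 0.28. Col5a1 was near the limit and also fell below it, with log2 ratios from 0.43 to 0.88 over 11 alternatives.

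Of 15 tested genes among the other collagens, 10 were past 1.5-fold higher and none lower, where 13.6% and 6.77% of all genes were. The rule gene Col22a1 is 1 of the 10. The 3 main chains of collagen VI, the beaded-filament collagen around cells, stood at 161 and 353 CPM (Col6a1), 136 and 267 CPM (Col6a2) and 97.8 and 258 CPM (Col6a3). Col8a1 stood at 294 and 558 CPM, and Col13a1 had a log2 ratio of 1.29. Collagen IV and collagen XII did not share this direction. Col4a1 stood at 775 and 584 CPM and Col12a1, a collagen on the surface of tendon fibrils, at 1032 and 969 CPM. The list's median was 0.93 in members, 0.69 in tenocytes and 0.39 in FAP-rule cells.

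**Figure D4:**
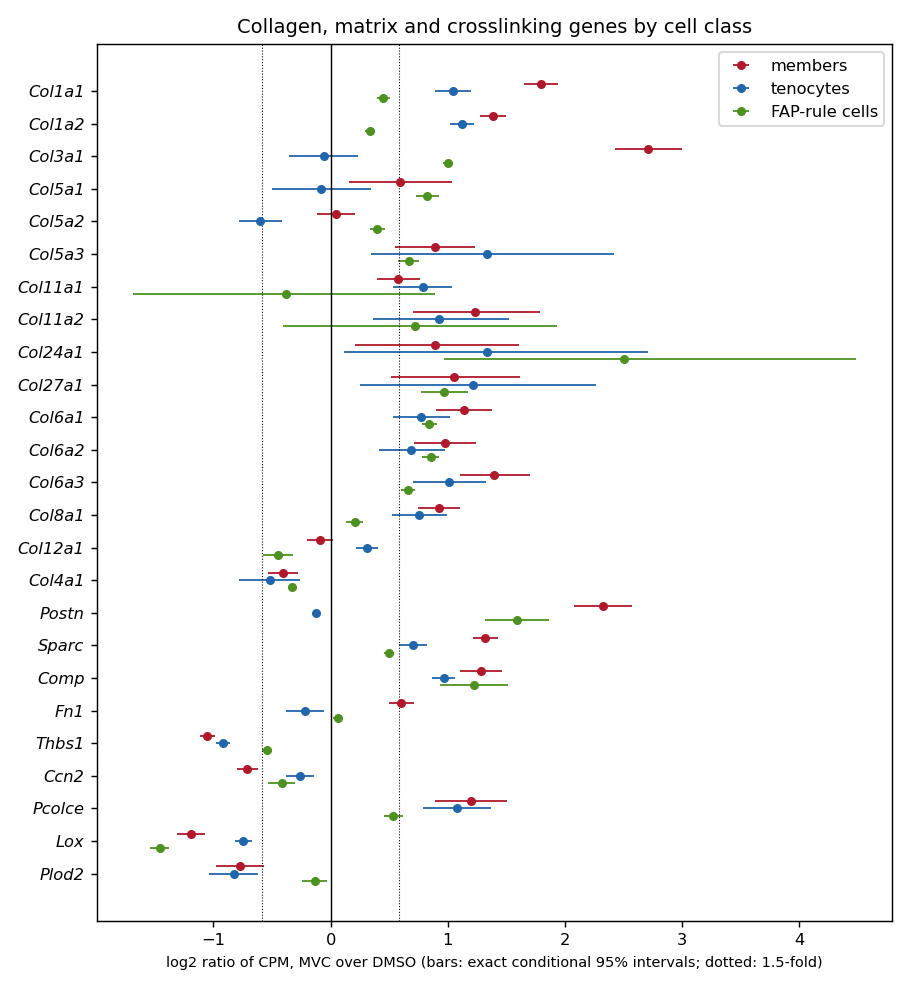
Log2 ratio of MVC over DMSO for 25 collagen, matrix and crosslinking genes in members, tenocytes and FAP-rule cells; bars are exact conditional 95% intervals and dotted lines mark 1.5-fold. Col1a1 stands at 1.80 in members and 1.04 in tenocytes, Postn at 2.32 and -0.13, and Lox at -1.19 and -0.75.

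Of 27 matrix glycoproteins 9 were higher and 3 lower (13.6% and 6.77% of all genes). Sparc, a collagen-binding protein, stood at 740 and 1844 CPM, a ratio of 2.49 (2.32 to 2.69), and fibronectin (Fn1) at 896 and 1362 CPM. Fibrillin-1 (Fbn1), Mfap4, Matn2, Matn4 and versican (Vcan) had log2 ratios of 0.67, 0.71, 0.86, 0.82 and 0.65. Thrombospondin-1 (Thbs1), which activates latent TGF-beta, was lower at 4116 and 1987 CPM, a ratio of 0.483, and had log2 ratios of -0.92 in tenocytes and -0.54 in FAP-rule cells. The YAP target Ccn2 was also lower, at 1734 and 1060 CPM. Among small leucine-rich proteoglycans 2 of 12 were higher and 1 lower, close to the 13.6% and 6.77% of all genes. Asporin (Aspn) stood at 996 and 1761 CPM, osteomodulin (Omd) at 63.6 and 24.1 CPM, and decorin (Dcn), which limits fibril thickness, at 9195 and 7237 CPM with no call.

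Of 15 genes that process and crosslink collagen, 6 were higher and 3 lower (13.6% and 6.77% of all genes). The procollagen C-proteinase enhancer Pcolce stood at 97.0 and 222 CPM, and P4ha3, Plod1, Adamts2, Loxl3 and Loxl4 had log2 ratios of 1.51, 0.79, 0.75, 0.59 and 0.61. Lysyl oxidase (Lox), which oxidises lysines so that collagens crosslink, stood at 1281 and 561 CPM, a ratio of 0.438 (0.404 to 0.476). Its log2 ratio was -1.19 in members, -0.75 in tenocytes and -1.46 in FAP-rule cells. The lysyl hydroxylase Plod2 was lower at 367 and 215 CPM, and Pcolce2 had a log2 ratio of -0.64. Summed over members, collagen I thus stood higher and Lox lower in the MVC library, and the 2 were not compared within single cells.

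The counts of protease, integrin and growth factor genes stand beside 13.6% higher and 6.77% lower among all genes, and each rests on a few calls. Of 11 metalloproteinases and inhibitors, Timp1 (560 and 870 CPM) and Adamts4 (log2 ratio 0.77) were higher and none lower, and the gelatinase Mmp2 was level at 668 and 647 CPM. Of 17 integrins and mechanosensing genes, Yap1, a coactivator that responds to cell tension, was lower at 260 and 151 CPM and none was higher. Among 28 TGF-beta and BMP genes, 5 were higher and 2 lower, including Tgfb1 at 66.8 and 102 CPM and the BMP ligand Bmp2 at 244 and 131 CPM. Mstn (myostatin) gave 3 and 53 UMIs, with 52.8% of the MVC UMIs in 3 cells. Of 17 Wnt, FGF, IGF and Hedgehog genes, Igf1 stood at 54.9 and 189 CPM, a ratio of 3.45 (2.65 to 4.55), with log2 ratios of 2.31 in tenocytes and 0.78 in FAP-rule cells, but its log2 ratio in members was 0.39 with cells thinned to 4000 UMIs before the rule. Wnt5a was higher at a log2 ratio of 1.30, and Igfbp3 and Ptch1 lower at -0.79 and -0.64.

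Neuropeptide and guidance genes, a list that includes the rule gene Tac1, were lower in 5 of 16 cases and higher in 1, against 6.77% and 13.6% of all genes. The axon repellent Sema3a stood at 130 and 69.7 CPM, and Sema3d was higher at a log2 ratio of 1.17. The neurotrophin Bdnf (-1.04), the opioid precursor Penk (-2.10) and Slit2 (-1.02) were lower, and 3 cells held between 74.6% and 93.9% of the DMSO UMIs of each. These 3 ratios therefore describe a few cells. The substance P receptor Tacr1 and the neuropeptide Vip had no UMI in members.

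Cdkn1a, the p21 gene that the study followed in its cell types as a sign of senescence, gave 351 and 345 member UMIs, at 279 CPM (251 to 310) and 213 CPM (191 to 236). The ratio was 0.762 (0.655 to 0.887) and did not reach 1.5-fold. It was detected in 70.6% and 54.7% of members, and its log2 ratio was -0.39 in members, -0.56 in tenocytes and -0.89 in FAP-rule cells. Cdkn2a, encoding p16 and Arf, gave 7 and 13 UMIs and was too sparse to compare. Of 11 senescence inhibitors and p53 targets tested, 3 were higher and none lower (13.6% and 6.77% of all genes). These were Trp53, Phlda3 and the apoptosis gene Bax, at log2 ratios of 0.65, 0.69 and 0.87.

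Chemokine and secretory cytokine genes were lower in 7 of 17 cases and higher in 3, against 6.77% and 13.6% of all genes. Il6 stood at 920 CPM (867 to 974) and 382 CPM (353 to 414), a ratio of 0.416 (0.377 to 0.459), and was found in 62.7% and 45.3% of members. Its log2 ratio was -1.27 in members, -0.11 in tenocytes and -0.10 in FAP-rule cells, and it was -0.50, short of 1.5-fold, in cells with 3 junction genes whatever their tenocyte genes. The plasminogen activator Plau (98.6 and 35.2 CPM) and the prostaglandin synthase Ptgs2 (193 and 112 CPM) were lower, as were Ccl7 and Igfbp3, at log2 ratios of -0.63 and -0.79. Cxcl2 and Il33 were lower too, but 90.1% and 85.1% of their DMSO UMIs lay in 3 cells. The macrophage growth factor Csf1 was higher at 367 and 721 CPM, a ratio of 1.96 (1.76 to 2.19), beside Ccl11 (log2 ratio 0.68) and the tissue plasminogen activator Plat (104 and 162 CPM). The monocyte chemokine Ccl2 stood at 1680 and 1490 CPM. The list's median log2 ratio was -0.40 in members, 0.43 in tenocytes and -0.28 in FAP-rule cells, and it turned to 0.10 with cells thinned to 4000 UMIs before the rule. Cxcl2 turned to 0.22 with Angptl7 left out of the rule.

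Stress and clock genes were read as well. Of 36 genes known to be induced by tissue dissociation, 6 were higher and 2 lower, close to the 13.6% and 6.77% of all genes, with a median log2 ratio of 0.07 in members, 0.35 in tenocytes and 0.09 in FAP-rule cells. Fos stood at 1244 and 1405 CPM, and Atf3 was higher at 307 and 671 CPM. In the clock, glucocorticoid and metallothionein list 2 of 17 were higher (Dbp and Nr1d1) and 4 lower, against 13.6% and 6.77% of all genes, among them the metallothionein Mt2 at 3478 and 1986 CPM. Hmox1, the heme-degrading enzyme, stood at 2333 and 1008 CPM. Of 8 interferon-stimulated genes, Gbp2 and Ifi27l2a were higher and Ifit2 (88.3 and 31.5 CPM) and Ifi203 lower, 2 in each direction where 13.6% and 6.77% of all genes were called. The part of preparation time and dissociation in the library differences was not tested.

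Markers of other cell types were low in members, with some movement between libraries. The FAP list summed to 663 and 688 CPM in members and to 4736 and 5659 CPM in FAP-rule cells. Of its 9 tested genes 3 were higher (Ly6a, Cd34 and Pi16) and C7 was lower, against 13.6% and 6.77% of all genes. These 3 genes were concentrated in a subgroup of 34 members described below. Ly6a and Pi16 stood there at 344 and 238 CPM, against 10.6 and 9.40 CPM in all other members, and Cd34 stood there at 254 CPM, against 17.5 CPM in the largest subgroup. Pericyte and smooth muscle markers summed to 48.5 and 124 CPM, with Kcnj8 at 0. Both tested genes were higher, against 13.6% of all genes. Smooth muscle actin (Acta2) stood at 15.1 and 61.7 CPM and Cspg4 had a log2 ratio of 1.10. Tagln, which smooth muscle also expresses, moved with Acta2, and the part of smooth muscle RNA in it was not tested. Endothelial markers summed to 35.8 and 96.2 CPM, and 3 cells held 83.3% and 75.4% of the UMIs of Flt1. Satellite cell markers summed to 0.795 and 0 CPM with Pax7 and Myod1 at 0, leukocyte markers to 4.77 and 7.40 CPM with Cd3e at 0, erythroid markers to 6.36 and 7.40 CPM, myofibre markers to 30.2 and 29.0 CPM, Schwann markers to 23.9 and 31.5 CPM and perineurial markers to 41.4 and 30.2 CPM with Lypd2 at 0.

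Cartilage and bone markers were also read, since the bone attachment of tendon is fibrocartilage. The aggrecan gene Acan gave 1 UMI in DMSO members and 0 in MVC members, Sox9 18 in each and Col2a1 6 and 15. The lubricin gene Prg4, which tendon surface and joint lining also express, was abundant at 2972 and 1659 CPM, a ratio of 0.558. Its log2 ratio lay between -0.95 and -0.35 over 11 alternatives, so it did not pass 1.5-fold in all of them. The osteoblast gene Bglap was at 0 and Sp7 gave 0 and 3 UMIs, while Runx2 stood at 154 and 174 CPM. The whole cartilage list summed to 3014 and 1701 CPM in members, nearly all of it Prg4, and to 4412 and 4074 CPM in tenocytes. The bone list summed to 168 and 181 CPM in members, against 94.7 and 76.2 CPM in tenocytes and 86.8 and 91.7 CPM in FAP-rule cells.

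Members with a Col22a1 UMI were compared with those without one inside each library. They were deeper, with medians of 11748 against 8470 UMIs in the DMSO library and 10607 against 7261.5 in the MVC library, so only ratios of summed levels are given. Postn stood at 317 CPM in Col22a1-positive and 31 CPM in Col22a1-negative DMSO members, a fold of 10.2 (6.67 to 16.2), and at 1226 and 53.5 CPM in the MVC library, a fold of 22.9 (16.9 to 31.7). Reln was 3.72-fold and 3.55-fold higher in Col22a1-positive members, Col11a2 2.0-fold and 2.98-fold, and Fn1 1.95-fold and 1.87-fold. The same contrast gave 2.66-fold and 11-fold for Tagln. Pdgfra was lower, at 0.347 and 0.0914 of the level in negative members, and Fmod at 0.632 and 0.733. Scx (1.5 and 3.66), Chad (0.979 and 3.09), Mkx (0.513 and 1.44) and Tac1 (1.5 and 0.666) differed between the libraries in size or direction.

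Stress, matrix and secretory genes were among those that varied most between members. The ratio of variance to mean was taken over 267 members of both libraries, thinned to 4000 UMIs. It was 44.0 for Fos, 39.3 for the heat shock gene Hspa1a, 29.3 for Ccl2, 25.4 for the stromelysin Mmp3, 24.7 for Angptl7, 23.2 for Apod and 21.5 for Prg4. With the libraries pooled, the ratio also takes in differences between them, as for Angptl7, detected in 65.9% of DMSO and 34.7% of MVC members. Mmp3 was detected in 13.1% of these cells, while Fos, Ccl2 and Angptl7 were each found in 47.6% to 49.1%.

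Leiden clustering of the members gave 6 subgroups, whose leading genes are a description of the grouping. All 6 held cells of both libraries. The largest (75 cells, 36 DMSO and 39 MVC) had Thbs4 at 15352 CPM and Tnc at 1584 CPM. A group of 70 cells was led by immediate-early and stress genes, with Fos at 4559 CPM and Egr1 at 5157 CPM. In a group of 57 cells Col22a1 stood at 465 CPM, Postn at 873, Chad at 1031 and Tagln at 268 CPM, each the highest level among the 6 groups. For Tagln this held only in the MVC library, which gave 197 of the 200 UMIs. The DMSO cells of the group had Tagln at 10.3 CPM, against 26.2 CPM in the DMSO cells of the group of 70. Comp (900 CPM), Cilp2 (130 CPM) and Reln (261 CPM) were also highest there. Not all matrix genes peaked in it over both libraries, since Col1a1 stood at 920 CPM against 1068 in the largest group. This order held in the MVC cells (1160 against 1757 CPM) and was the other way in the DMSO cells (547 against 329 CPM). Col3a1 stood at 80.3 CPM against 1072 in the group of 34 cells described next. A group of 55 cells had Fmod at 5397 CPM, Mkx at 505 CPM and little Col22a1 (18.8 CPM).

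The remaining subgroups carried genes of other cell types. A group of 34 cells, which held all 4 doublet calls among members and a median of 12023 UMIs, had Pdgfra at 178 CPM, Smoc2 at 580, Ly6a at 344 and Pi16 at 238 CPM, together with the most Tac1 of the 6 groups (1315 CPM) and Thbs4 at 4564 CPM. A group of 7 cells had the neural adhesion gene Ncam1 at 816 CPM, no UMI of Tac1, Col22a1, Tnmd, Scx or Angptl7, and Thbs4 at 1745 CPM. Its 2 DMSO cells gave 87 Thbs4 UMIs (3342 CPM) and its 5 MVC cells gave 5 (187 CPM). The 34 cells still held tendon genes, with Tnmd at 231 CPM in 47.1% of them and Fmod at 848 CPM in 61.8%. Without these 41 cells, 697 genes were higher and 415 lower in MVC members, and the log2 ratio was 1.83 for Col22a1, 1.97 for Postn, 3.13 for Col3a1, 3.38 for Tagln, -2.72 for Angptl7 and -1.26 for Il6.

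**Figure D5:**
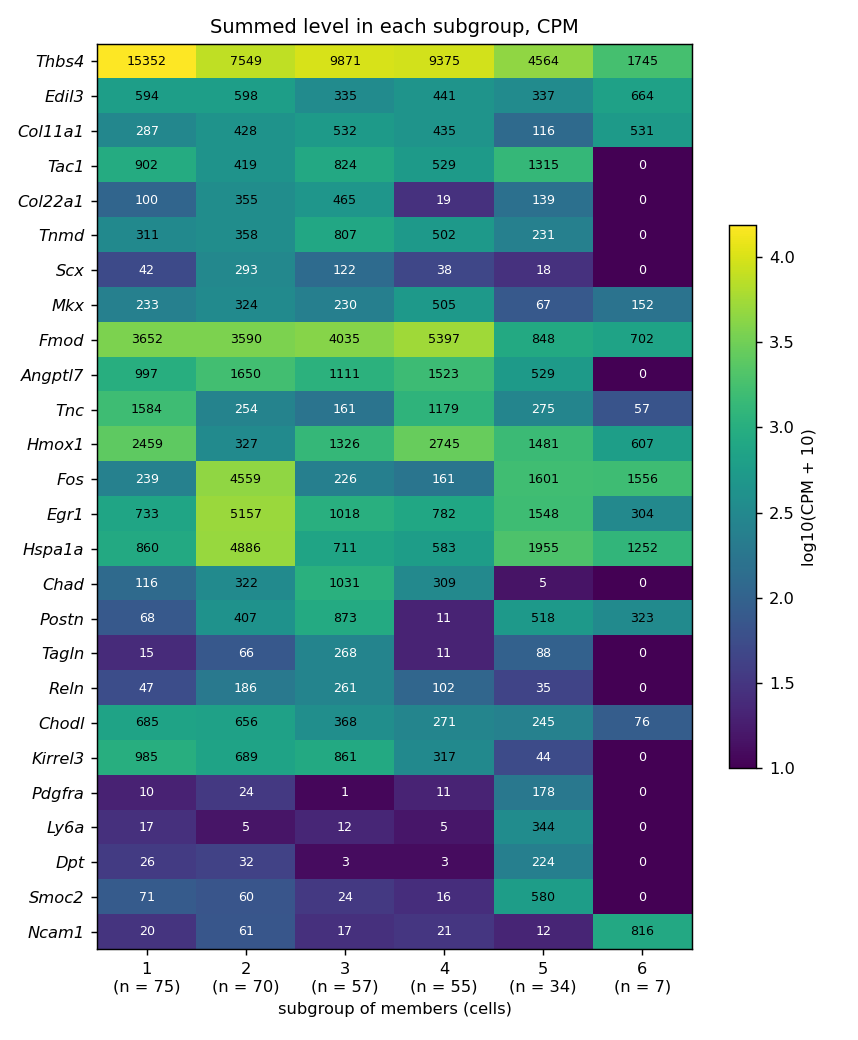
Summed level in CPM of 26 genes (vertical) in the 6 subgroups of members (horizontal, with the number of cells), coloured by log10(CPM + 10). Col22a1 and Postn are highest in the third subgroup, at 465 and 873 CPM, and Pdgfra and Smoc2 in the fifth, at 178 and 580 CPM.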

How the data were processed

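Per the submitters' processing notes, Cell Ranger 7.0.0, Seurat 5.0.1 and the mm10 build were used; whether intronic reads were counted is not given in the sources used here. The authors deposited raw UMI counts per gene and cell barcode for each library (5812 DMSO and 6047 MVC barcodes, 39150511 and 36063575 UMIs). The filter stated by the study (at least 500 genes, at most 10% mitochondrial UMIs) left 5437 and 5454 cells, and 0 columns belonged to other samples.

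Member UMIs were summed per library and expressed as CPM. Ratios carry exact conditional intervals, shares Clopper-Pearson intervals and their difference a Newcombe interval. With 1 library per group no test was run, and only genes with at least 50 UMIs were counted. A gene with 0 UMIs in a library was set to 3 UMIs for its ratio. Mitochondrial, Xist and Y-linked genes were left out. Doublets were called from simulated mixtures of cell pairs and kept. Members were clustered with 1000 variable genes, 10 components, 15 neighbours and Leiden resolution 0.6.

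The named genes had the 12 highest and 12 lowest ratios among genes with an interval beyond 1, UMIs in at least 20% of members of 1 library and under 50% of UMIs in 3 cells (applied to a library with 50 or more UMIs). For contrasts with other cells they came from the 12 most different per direction in both libraries. A few of the genes so chosen are not reported here. Members and gene lists were chosen with earlier results of these data known. Alternatives were another depth, filter, fold, scaling or member rule. Scripts were tested on simulated data. Software was Python 3.11.15, numpy 2.4.6, scipy 1.17.1, pandas 2.3.3, scikit-learn 1.9.0, igraph 0.11.9, leidenalg 0.10.2 and matplotlib 3.10.9.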

Additional observations from a re-analysis of the deposited data

Results flagged for a closer look

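For 7 genes the MVC over DMSO ratio lay on opposite sides of 1 in members and in tenocytes, with both intervals clear of 1 and both past 1.5-fold. The difference between the cell sets was not tested for any of them. Col22a1 had a log2 ratio of 1.64 in members and -3.59 in tenocytes, the latter from 11 and 1 UMIs. Both cell sets were chosen with this gene in the rule, so its values are only a description. Plau stood at -1.49 and 0.74, Ptgs2 at -0.79 and 0.62 and Ccl7 at -0.63 and 1.52. Plat was higher in MVC members (0.64) and lower in tenocytes (-0.67). Bdnf (-1.04 and 1.30) and Ifi203 (-1.12 and 1.57) had 75.0% and 71.6% of their DMSO member UMIs in 3 cells.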

How the results depend on the processing

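No paired analysis was possible because the labels give no replicate numbers and there is 1 library per group. The share difference lay between 0.633 and 0.993 points over 8 alternatives and the Cdkn1a log2 ratio between -0.57 and -0.33 over 11. Over the same 11, Angptl7 lay between -2.83 and -1.66, Col22a1 between 0.53 and 2.09, Postn between 1.18 and 3.46, Il6 between -1.67 and -0.50, Igf1 between 0.39 and 1.98 and the median of the fibrillar collagens between 0.80 and 1.31. Genes higher and lower in MVC members numbered 360 and 285 with cells thinned to 4000 UMIs before the rule, 1776 and 775 with a minimum of 20 UMIs, 451 and 244 with a minimum of 100, and 265 and 112 at 2-fold, where a changed number of genes tested or a larger fold is part of the setting. Genes higher and lower than in tenocytes numbered 166 and 139 with thinning. Changes of direction came with thinning for Ccl2 (0.10), Cilp2 (-0.35) and the chemokine median (0.10). Cxcl2 (0.22) and Ccl2 (0.034) changed without Angptl7 in the rule, and Cxcl2 (0.17) and the chemokine median (0.017) with 3 junction genes whatever the tenocyte genes. Thbs4 changed without the subgroup of 57 cells (0.024), and Reln without the Ptprc and Cdh5 limits (-0.28 in place of 0.69). The causes were not tested. Settings that changed the rule's tenocyte genes or limits, or left out subgroups, were chosen after seeing the data. The lowest Col22a1 and Postn values came from dropping the limits.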
